A study of Mus musculus with 8 samples.

Results

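H3K4me3 was examined at 10 genes that carry glucose from its entry into the cell to lactate, or that exchange the glycolytic intermediate dihydroxyacetone phosphate with glycerol 3-phosphate. The genes were Slc2a1, Hk1, Hk2, Pfkp, Aldoa, Pkm, Ldha, Gpd1, Gpd1l and Gpd2. Every peak that the deposited table lists under one of these symbols was taken, without regard to its signal. This gave 25 of the 35486 listed peaks, spread over 9 of the 10 genes and 9 of the 20871 listed genes. No row of the table is listed under Slc2a1.

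Tumor cells were sorted from the lungs of KL mice (replicates 1 and 2) and KLG4m/m mice (replicates 3 and 4). KL is an autochthonous lung tumor model with the genotype KrasLSL-G12D/+Lkb1fl/fl, and KLG4m/m is the same model with Gpx4m/m. The methods give 1000000 cells per mouse, and whether each library came from its own mouse is not given in the sources used here. All mice were adults at infection, received Ad-Cre by the nose and tamoxifen afterwards, and were taken 10 weeks after Ad-Cre. The tumor-initiating alleles, loss of Lkb1 and the tamoxifen treatment were therefore common to both groups. Gpx4 loss in KLG4m/m cells depended on Cre first removing a stop cassette and on a tamoxifen-activated Dre recombinase then cutting the gene. The Cre was delivered by adenovirus, with no cell-type restriction of its promoter given in the sources used here. The sort kept CD45-CD31-EpCAM+ cells. The methods name 3 mice in total while the labels list 2 libraries per group. Replicates are separate libraries. With 2 libraries per group, each p-value tests a group difference against a spread that was estimated with information shared over all peaks or genes. The H3K27ac libraries were not analysed here.

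H3K4me3, the trimethylation of histone H3 at lysine 4, gathers around the start sites of genes that are transcribed or ready to be. In glycolysis, glucose transporters such as GLUT1 (Slc2a1) bring in glucose, hexokinases trap it as glucose 6-phosphate, phosphofructokinase commits it, aldolase splits it, pyruvate kinase makes pyruvate and ATP, and lactate dehydrogenase turns pyruvate into lactate while restoring NAD. Many lung tumors and other cancers use this route heavily. The glycerol-phosphate dehydrogenases branch off after aldolase: the cytosolic enzymes Gpd1 and Gpd1l make glycerol 3-phosphate, the backbone of triacylglycerol and phospholipids, and the mitochondrial enzyme Gpd2 oxidises it back and hands the electrons to the respiratory chain.

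Promoter sequences of RefSeq (build GRCm38.p6) were matched to the members by symbol, which gave 15 windows for 9 genes and none for Gpd1. The first 250 bases of 5 windows, those that end just before the annotated start of transcription, are given because they show the letters discussed here: the transporter and hexokinase that are classic targets of hypoxia signalling, lactate dehydrogenase, Gpd1l, and Pfkp as a window without the searched core. They are written 5′ to 3′ along the gene, and capitals mark ACGTG, the core of the hypoxia response element, on either strand (CACGT on the other strand).
Slc2a1 (chr4:119108495-119108744, plus strand): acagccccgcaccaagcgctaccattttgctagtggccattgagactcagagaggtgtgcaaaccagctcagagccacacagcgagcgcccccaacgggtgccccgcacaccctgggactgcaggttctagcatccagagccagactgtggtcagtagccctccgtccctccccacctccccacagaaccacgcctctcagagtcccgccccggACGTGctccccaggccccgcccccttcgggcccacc
Hk2 (chr6:82774455-82774704, minus strand): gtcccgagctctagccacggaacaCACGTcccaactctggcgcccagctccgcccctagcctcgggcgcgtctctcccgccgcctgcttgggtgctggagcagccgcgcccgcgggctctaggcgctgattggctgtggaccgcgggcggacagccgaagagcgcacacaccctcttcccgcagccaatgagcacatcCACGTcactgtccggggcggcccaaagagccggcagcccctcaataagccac
Ldha (chr7:46845554-46845803, plus strand): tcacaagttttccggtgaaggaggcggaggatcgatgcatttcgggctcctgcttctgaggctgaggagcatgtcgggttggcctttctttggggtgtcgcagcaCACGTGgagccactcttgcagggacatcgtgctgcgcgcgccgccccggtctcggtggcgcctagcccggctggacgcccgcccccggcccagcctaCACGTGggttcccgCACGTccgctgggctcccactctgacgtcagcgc
Gpd1l (chr9:114933988-114934237, minus strand): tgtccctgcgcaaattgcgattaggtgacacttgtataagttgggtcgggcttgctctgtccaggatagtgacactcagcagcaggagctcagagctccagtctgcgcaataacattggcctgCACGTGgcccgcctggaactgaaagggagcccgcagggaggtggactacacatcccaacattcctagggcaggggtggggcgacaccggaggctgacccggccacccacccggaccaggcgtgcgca
Pfkp (chr13:6648772-6649021, minus strand): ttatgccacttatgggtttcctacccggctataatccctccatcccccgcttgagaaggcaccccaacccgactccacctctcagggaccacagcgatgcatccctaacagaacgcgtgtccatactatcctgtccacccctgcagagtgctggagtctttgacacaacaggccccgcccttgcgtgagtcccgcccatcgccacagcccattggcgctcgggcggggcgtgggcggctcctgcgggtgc

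The core ACGTG was found in 8 of the 15 member windows, and 16.6% of the 32851 RefSeq windows held it. The E-box CACGTG, which overlaps the core because it contains it on both strands, was found in 2 member windows and in 6.02% of all windows. In the Ldha window both E-boxes and a further core stand in capitals, and this was the richest member window in cores. In the Gpd1l window the capitals are a single E-box. The GC box GGGCGG, a letter string bound by Sp1-type factors, was found on either strand in 8 member windows and in 32.7% of all windows, and the Pfkp window held 4 of them. Windows of the same gene can overlap, and a shared match is then counted in each. This holds for 2 Aldoa windows, which share their single ACGTG core and 2 GC boxes, while 1 of these windows holds 3 GC boxes. Such matches describe these letters only. The listed peaks are not placed on GRCm38, so whether a peak covers a given match was not tested.

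Each of the 9 genes with a listed peak had at least 1 peak within 1 kb of a start site, and 12 of the 25 peaks lay there. All member peaks are 400 bp wide, so that their levels can be set side by side in CPM, read counts relative to the library's reads in listed peaks, adjusted by the trimmed mean of M values (TMM). The strongest member peak was that of Hk1 at the start of NM_001146100.1, with 119 CPM on average over the 4 libraries, which placed it at percentile 97.9 of the 17073 peaks within 1 kb of a start site. Pfkp followed with 103 CPM, Pkm with 94.9 CPM and Aldoa with 84.0 CPM. Gpd1l, Gpd2 and Hk2 stood together at 76.3, 75.6 and 75.5 CPM, a range smaller than the gap between the KL libraries of Gpd1l (80.0 and 71.7 CPM). The libraries of Pkm, at 82.4 to 102 CPM, overlapped those of Pfkp (91.6 to 115 CPM) and those of Aldoa (77.8 to 88.2 CPM). Those of Pfkp and Aldoa did not overlap each other. Ldha had 69.9 CPM. Gpd1 was far below the others with 18.3 CPM, at percentile 28.7, and its highest library (24.5 CPM) did not reach the lowest library of any other member's strongest peak (60.1 CPM, for Ldha).

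**Figure D1:**
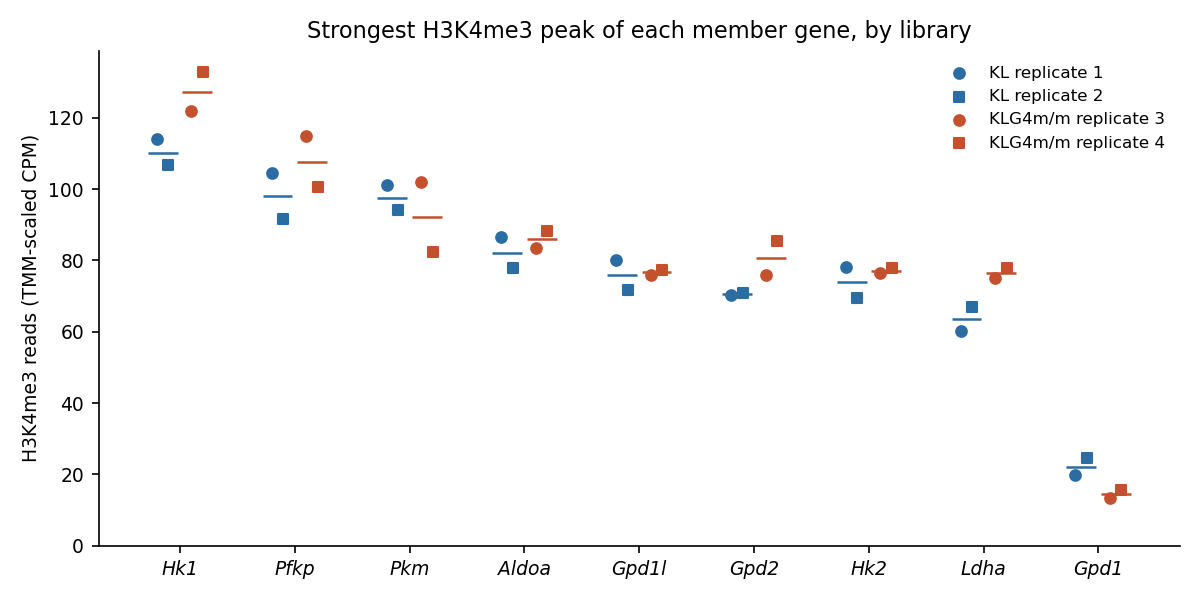
TMM-scaled CPM (vertical axis, from 0) at the strongest H3K4me3 peak of each of the 9 member genes with a listed peak, 1 point per library and a line at each group's mean of 2 libraries. Hk1 is highest and Gpd1 lowest in every library, and the KL and KLG4m/m points lie apart at Hk1, Gpd2, Ldha and Gpd1.

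The question put to these peaks was whether Gpx4 deletion changed H3K4me3 at glycolytic and glycerol-phosphate genes. Most member peaks did not pass the test. Of the 25 peaks, 1 was higher in KLG4m/m (an intronic peak of Hk2) and 1 was lower (the promoter peak of Gpd1), by edgeR's quasi-likelihood test at a Benjamini-Hochberg adjusted p under 0.05 over all peaks. Over all 35486 peaks the same test called 3.1% higher and 5.52% lower. The log2 fold changes (KLG4m/m over KL) of the member peaks ran from -0.62 to 0.75 with a median of 0.14, beside 0.01 over all peaks. Of the 25, 20 were above 0, beside 18107 of all 35486 peaks. Peaks of 1 gene are not independent, and 7 of the 25 belong to Hk1 and 6 to Hk2. DESeq2 called neither of these peaks, nor any member gene (1 of the 25 peaks higher and none lower at an unadjusted p under 0.05). In 10 member peaks both KLG4m/m libraries exceeded both KL libraries in CPM, and in 2 both fell short of them; the same held for 27.5% and 26.6% of all peaks. In sorted bulk cells, fewer cells carrying the mark and less mark per cell cannot be told apart.

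**Figure D2:**
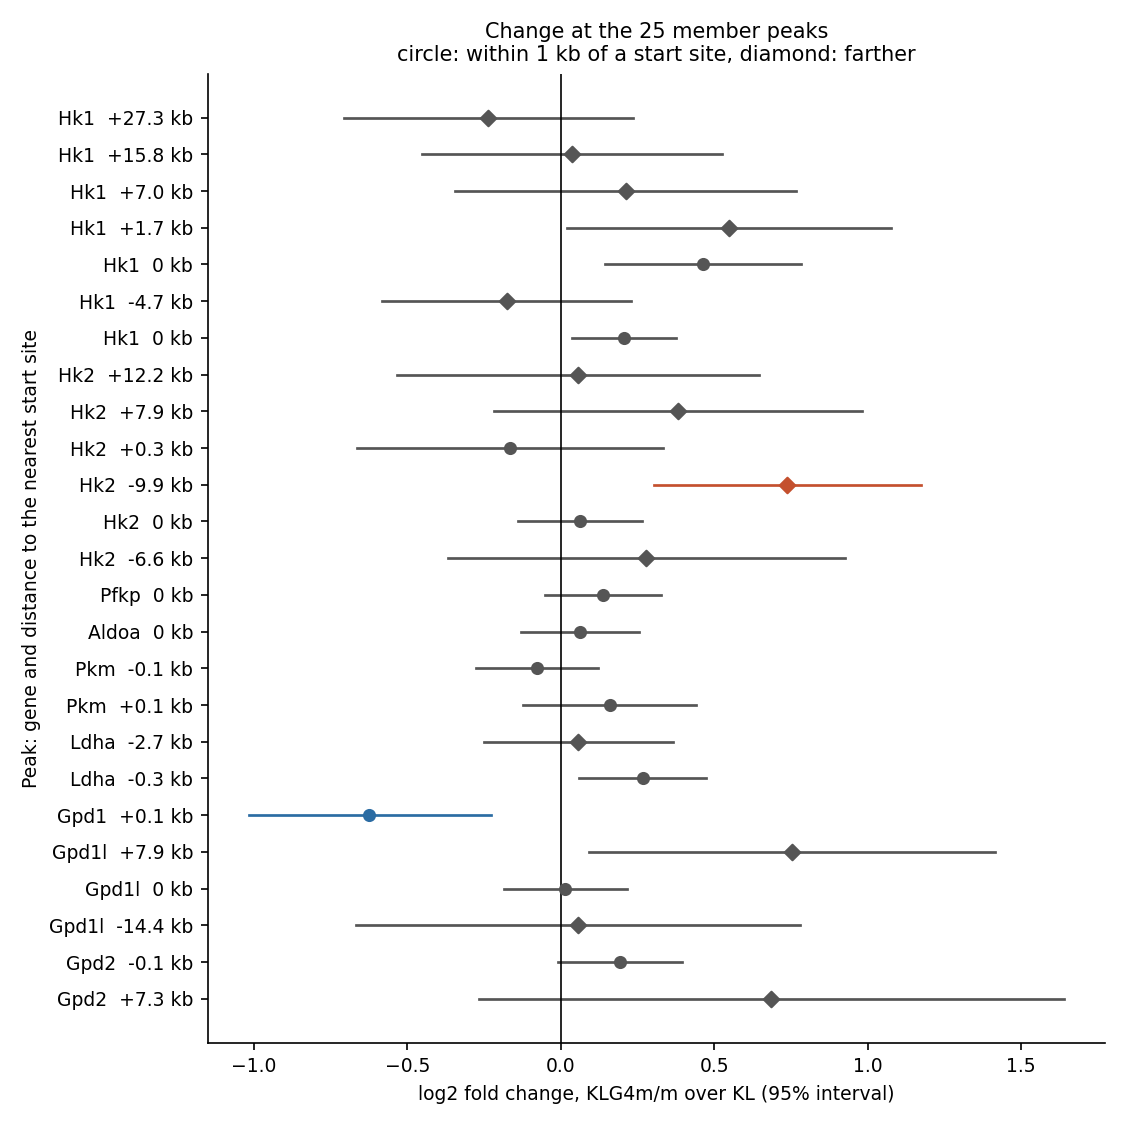
log2 fold change (KLG4m/m over KL, horizontal axis) of H3K4me3 at the 25 member peaks with approximate 95% intervals from 2 libraries per group, each peak named by its gene and its distance in kb to the nearest start site of the authors' annotation (negative: upstream). The Hk2 peak at -9.9 kb (red) and the Gpd1 peak (blue) passed the threshold.

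Slc2a1 encodes GLUT1, and its peaks stand under other names. In the RefSeq annotation of GRCm38.p6, Slc2a1 begins at chr4:119108745 and shares 5 bases at its start with Gm52706, a long non-coding RNA gene of the opposite strand. The table lists a peak at the start of Gm52706 (chr4:118965745-118966145 in its own coordinates) that held 293 and 281 reads in KL and 269 and 271 reads in KLG4m/m. The groups were close together, with a log2 fold change of -0.03 and an edgeR adjusted p of 0.881. A second peak of Gm52706 held 173 and 155 reads in KL and 147 and 153 reads in KLG4m/m (log2 fold change -0.07, edgeR adjusted p = 0.771). A peak that the table annotates to an intron of Slc2a1, while listing it under Gm12867 (chr4:118983063-118983463), held 144 and 131 reads in KL and 179 and 135 reads in KLG4m/m. Here 1 KLG4m/m library was high and the other stood beside KL, with a log2 fold change of 0.25 and an edgeR adjusted p of 0.252. None of these peaks counts among the 25.

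Hk1, the hexokinase found in most tissues, had 7 listed peaks on chromosome 10. Its strongest peak (chr10:62175924-62176324, the start of NM_001146100.1) held 396 and 370 reads in KL and 420 and 429 reads in KLG4m/m. Both KLG4m/m libraries were above both KL libraries, by a log2 fold change of 0.21 with a standard error of 0.08, and the edgeR adjusted p was 0.12. A second start site, that of XM_006513247.2 within the gene (chr10:62163250-62163650), held 76 and 87 reads in KL and 105 and 111 reads in KLG4m/m. The groups again did not overlap, and the log2 fold change of 0.46 (95% interval 0.14 to 0.78) had an edgeR adjusted p of 0.0622, outside the threshold. The peak 1.69 kb downstream of that start held 29 and 25 reads in KL and 35 and 41 in KLG4m/m (log2 fold change 0.55, edgeR adjusted p = 0.184). The other 4 peaks of Hk1, all in its introns, ranged in log2 fold change from -0.24 to 0.21.

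Summed over its 7 peaks, Hk1 had 668 and 647 reads in KL and 712 and 732 reads in KLG4m/m. The sum was higher in KLG4m/m by 1.14-fold (log2 fold change 0.19, standard error 0.06, edgeR adjusted p = 0.0294 over the 20871 genes). It was the only one of the 9 members with a higher sum past the threshold, where 5.38% of all genes were called higher. This call ended when any 1 of the 4 libraries was left out, with adjusted p from 0.0612 without KL replicate 1, 0.161 without KLG4m/m replicate 3 and 0.174 without KL replicate 2 to 0.349 without KLG4m/m replicate 4. The share of reads of both start sites that fell on the inner one was 16.1% and 19.0% in KL and 20% and 20.6% in KLG4m/m. The exact binomial 95% intervals of these shares, which cover counting error only, overlapped between the groups (12.9 to 19.7% in KL replicate 1, 17.2 to 24.2% in KLG4m/m replicate 4).

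Hk2 encodes the hexokinase that insulin-responsive tissues and many tumors use, and its strongest peak was not called. That peak, at the start of NM_013820.4 (chr6:82751314-82751714), held 272 and 241 reads in KL and 264 and 251 reads in KLG4m/m. Its log2 fold change was 0.06 with a 95% interval of -0.14 to 0.26 (edgeR adjusted p = 0.74). In the first intron, 9.89 kb upstream of the start of the inner transcript XM_017321401.3, a weaker peak (chr6:82741034-82741434) held 34 and 42 reads in KL and 58 and 64 reads in KLG4m/m. Both KLG4m/m libraries were above both KL libraries there: the mean rose from 10.9 ± 1.64 to 18.3 ± 2.12 CPM (SD, n = 2 each), a log2 fold change of 0.74 (standard error 0.21, 95% interval 0.30 to 1.17, edgeR adjusted p = 0.0283). Without KL replicate 1 the log2 fold change was 0.59 and the call ended. Without KLG4m/m replicate 3 or 4 the log2 fold change was 0.85 or 0.62, and the call ended there as it did for every called peak. The remaining 4 peaks of Hk2 held 19 to 49 reads per library and ranged from -0.17 to 0.38, with groups that overlapped at each of them. The sum over the 6 peaks was 424 and 398 reads in KL and 453 and 424 reads in KLG4m/m, and its log2 fold change of 0.15 did not pass the threshold (edgeR adjusted p = 0.201).

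**Figure D3:**
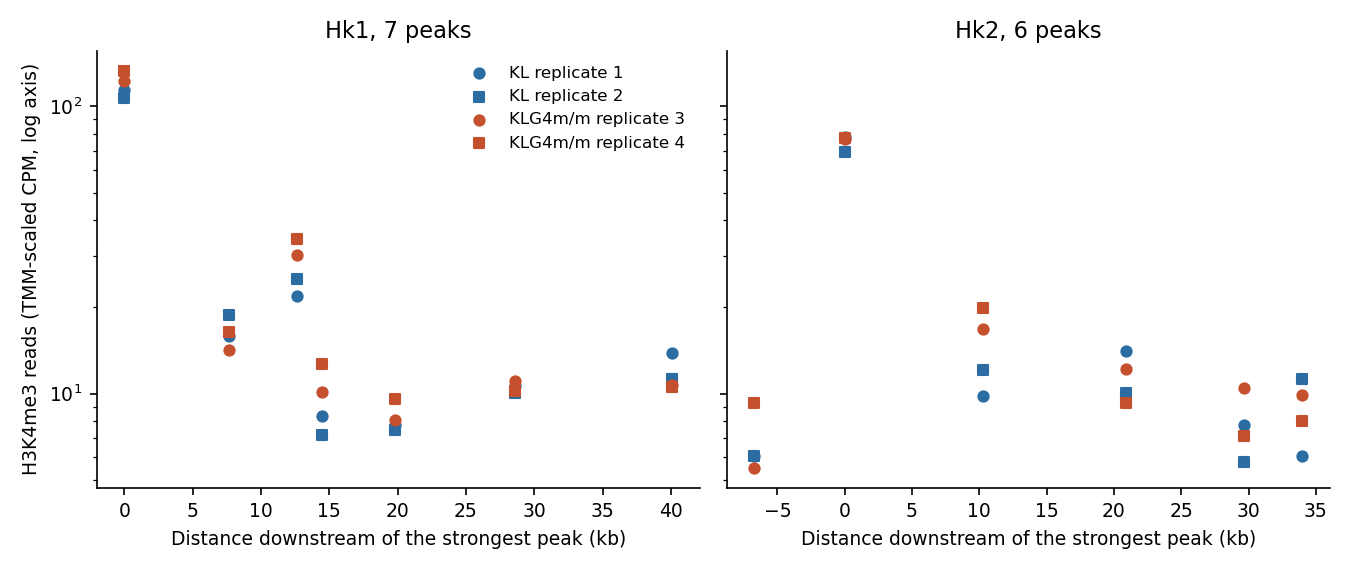
TMM-scaled CPM (vertical log axis) of each library at the 7 peaks of Hk1 and the 6 peaks of Hk2, by distance in kb downstream of the gene's strongest peak (horizontal axis, negative: upstream). The red KLG4m/m points stand above the blue KL points at the Hk2 peak in the first intron and at the inner start site of Hk1, and the groups overlap at the strongest peak of Hk2.

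Whether 1 peak of a gene changed differently from the gene's other peaks was tested within edgeR for the 22 member peaks in the 6 genes with at least 2 listed peaks. None passed by edgeR, where 1.29% of the 22232 peaks tested did. The smallest edgeR adjusted p was 0.217, for the intronic peak of Hk2, and 2 of the 22 peaks had an unadjusted p under 0.05. The change at the Hk2 intron is thus not shown to differ from that at the Hk2 promoter.

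None of the members that act in the middle and lower pathway passed the test. The Pfkp promoter, which serves the platelet form of phosphofructokinase, held 363 and 318 reads in KL and 396 and 325 reads in KLG4m/m, and the libraries of both groups were interleaved. Its log2 fold change was 0.14 (95% interval -0.05 to 0.33, edgeR adjusted p = 0.368). The Aldoa promoter (aldolase A) held 301 and 270 reads in KL and 288 and 285 reads in KLG4m/m, again with overlap, and its log2 fold change was 0.06 (95% interval -0.13 to 0.26, edgeR adjusted p = 0.729). These intervals reach up to 1.25-fold at Pfkp and 1.19-fold at Aldoa.

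Pkm, which encodes the muscle pyruvate kinases PKM1 and PKM2 through alternative splicing, had a peak at each of 2 start sites. The stronger held 351 and 327 reads in KL and 352 and 266 reads in KLG4m/m, where KLG4m/m replicate 4 was the lowest of the 4 libraries (log2 fold change -0.08, edgeR adjusted p = 0.666). The weaker, at XM_036154690.1, held 112 and 120 reads in KL and 127 and 122 reads in KLG4m/m (log2 fold change 0.16, edgeR adjusted p = 0.504). The sum over both differed by -0.02 on the log2 scale (95% interval -0.17 to 0.14). H3K4me3 at start sites carries no information on the choice between the 2 splice forms.

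Ldha, the subunit A of lactate dehydrogenase, had its strongest peak 0.313 kb upstream of the start of NM_001136069.2 (chr7:46495793-46496193). It held 209 and 232 reads in KL and 259 and 251 reads in KLG4m/m. Both KLG4m/m libraries were above both KL libraries by a log2 fold change of 0.27 (95% interval 0.06 to 0.47), but the edgeR adjusted p of 0.0969 missed the threshold. A peak 2.72 kb upstream of another start of Ldha held 107 and 102 reads in KL and 98 and 111 reads in KLG4m/m, and the groups overlapped (log2 fold change 0.06). The sum over both peaks had a log2 fold change of 0.20 and an edgeR adjusted p of 0.107.

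Of the 3 glycerol-phosphate dehydrogenases, Gpd1 was lower in KLG4m/m, and Gpd1l and Gpd2 did not pass the test. Gpd1 had 1 peak, 0.055 kb from the start of NM_010271.3 (chr15:99615523-99615923). It held 69 and 85 reads in KL and 46 and 50 reads in KLG4m/m, and both KLG4m/m libraries were below both KL libraries. The mean fell from 22.2 ± 3.28 to 14.4 ± 1.51 CPM (SD, n = 2 each), a log2 fold change of -0.62 (standard error 0.19, 95% interval -1.02 to -0.23, edgeR adjusted p = 0.0417). As the only peak of its gene it also made Gpd1 the single member with a lower sum past the threshold (edgeR adjusted p = 0.0175), where 9.63% of all genes were called lower. Without KL replicate 2 the log2 fold change of the peak was -0.46 and the call ended. Without KLG4m/m replicate 3 or 4 the log2 fold change was -0.52 or -0.73, and the call ended there as it did for every called peak. At 46 to 85 reads per library, counting error is a large part of the value.

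Gpd1l, the Gpd1-like enzyme, carried a promoter peak of 278 and 249 reads in KL and 262 and 250 reads in KLG4m/m (chr9:114762789-114763189). The groups overlapped and the log2 fold change was 0.02, with a 95% interval of -0.18 to 0.22 (edgeR adjusted p = 0.944). A weak peak in its first intron, 7.91 kb from the start of XM_036155088.1 (chr9:114754390-114754790), held 14 and 18 reads in KL and 23 and 29 reads in KLG4m/m. Here both KLG4m/m libraries were higher, with the largest log2 fold change of the 25 peaks (0.75, 95% interval 0.09 to 1.42), but on so few reads the edgeR adjusted p was 0.145. The intergenic peak 14.4 kb upstream held 17 and 16 reads in KL and 18 and 15 reads in KLG4m/m. Summed over its 3 peaks, Gpd1l had a log2 fold change of 0.07 (95% interval -0.12 to 0.25, edgeR adjusted p = 0.685).

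Gpd2, the mitochondrial enzyme, held 244 and 246 reads in KL and 262 and 276 reads in KLG4m/m at its promoter peak (chr2:57127845-57128245). Both KLG4m/m libraries were above both KL libraries, and the log2 fold change of 0.19 (95% interval -0.01 to 0.39) did not pass the threshold (edgeR adjusted p = 0.225). A faint peak in its first intron held 13 and 5 reads in KL and 15 and 13 reads in KLG4m/m, too few to place the difference (log2 fold change 0.69, 95% interval -0.27 to 1.64). A further faint peak within Gpd2, of 13 and 13 reads in KL and 11 and 11 reads in KLG4m/m, is listed under the neighbour Gm13535 and is not counted among the 25.

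The rest of the pathway was taken from a list of 70 gene names, 60 of which have a listed peak. The names without one include Pgam2, Slc2a2, Pfkfb1, Pdha1, Pdhx, Pdp1, Pck1, Pgp and Gyk. Gyk is an older symbol of Gk, which is listed, and because each peak is given to 1 gene, a gene without a row can still have a peak under a neighbour's name, as Slc2a1 does. Summed over their peaks, 4 of the 60 genes were higher in KLG4m/m (Pgk1, Egln3, Pfkl and Pfkfb3) and 3 were lower (Pdk4, Slc16a1 and Hif1a), against 5.38% and 9.63% of all genes. The median log2 fold change of the 60 genes was 0.04, beside 0.0023 over all genes. Without KLG4m/m replicate 3 or 4, edgeR called no gene and no peak of the whole table, with 4186 or 3827 genes still at an unadjusted p under 0.05. Without KL replicate 1 the calls of Pfkl, Pdk4, Slc16a1 and Hif1a ended (edgeR adjusted p = 0.258, 0.213, 0.0667 and 0.259), and without KL replicate 2 those of Pfkfb3 and Slc16a1 (0.1 and 0.308). DESeq2 called Pgk1 and Egln3 only.

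**Figure D4:**
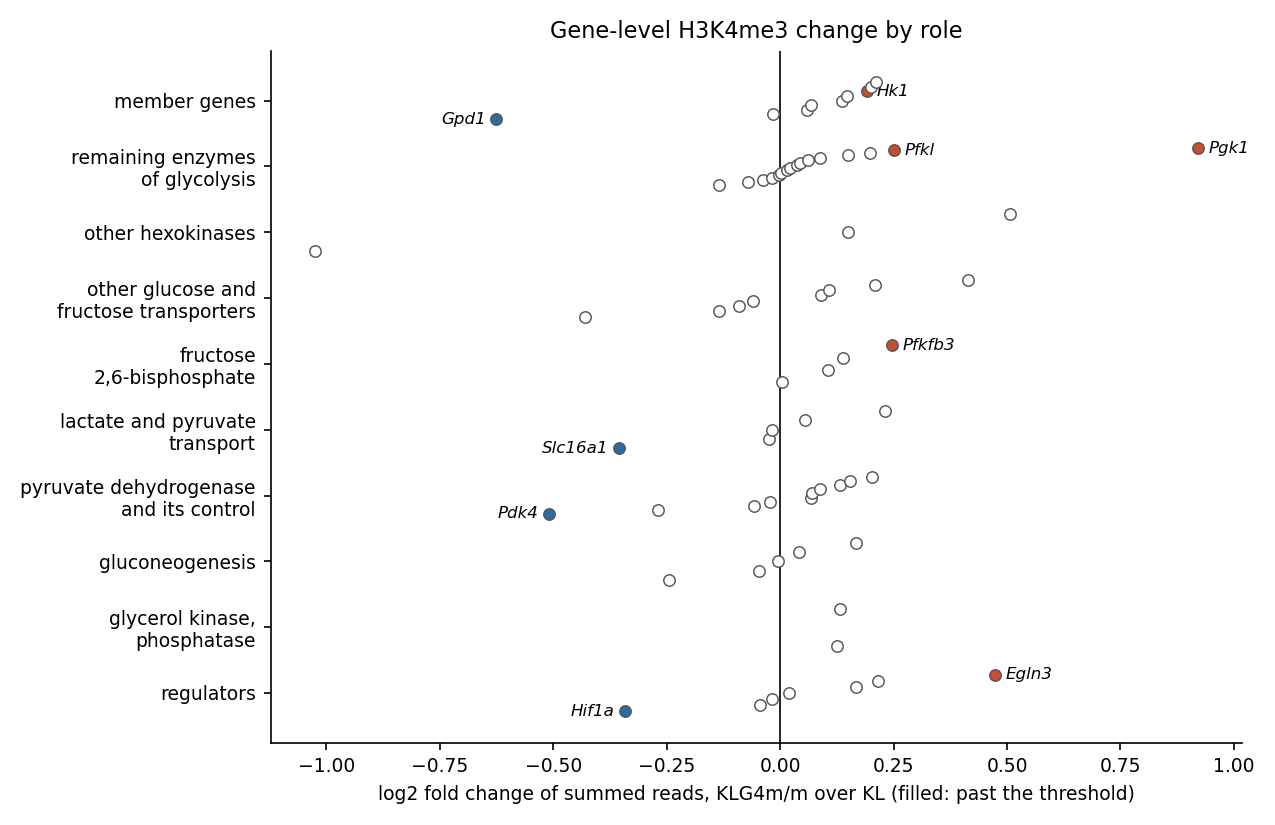
log2 fold change of reads summed over each gene's peaks (KLG4m/m over KL, horizontal axis) for the 9 listed members and 60 other genes of the pathway, grouped by role (vertical axis). Filled points passed the threshold and are named. Among the remaining enzymes of glycolysis, Pgk1 stands far to the right at 0.92 and Pfkl also passed, at 0.25. The rest of that role run from -0.13 to 0.20.

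Among the 16 remaining enzymes of glycolysis, 2 were higher and none was lower. Pgk1, phosphoglycerate kinase, which makes the first ATP of the pathway, stood apart from all others. Its single promoter peak (chrX:105230418-105230818) held 250 and 234 reads in KL and 432 and 450 reads in KLG4m/m, so that the groups were far apart. The log2 fold change was 0.92 (standard error 0.09, 95% interval 0.74 to 1.10) with an edgeR adjusted p of 3.41e-15 for the gene. In the fit over peaks, the same reads had an edgeR adjusted p of 3.6e-07, and by p the peak was number 11 of all 35486. Pgk1 is X-linked and has processed copies elsewhere in the genome, and the authors removed reads of low mapping quality. Whether any reads of this promoter peak came from such copies was not tested. The Pgk1 promoter is also widely used in targeting and transgene cassettes. The methods name a CAG promoter in the Gpx4m/m allele, which the KL mice lack, and whether the allele also holds a Pgk1 promoter is not given in the sources used here, and reads from such a copy cannot be told apart in these counts from reads of the gene itself. The value is that of the reads assigned to this peak. The 759 other peaks of chromosome X had a median log2 fold change of 0.06, and 19 of them were called higher. Of the 16 other peaks within 500 kb, 1 was called higher: a peak listed under Taf9b 16.9 kb away, with 37 and 25 reads in KL and 60 and 61 reads in KLG4m/m (log2 fold change 1.02, edgeR adjusted p = 0.00534). The peak at 32.7 kb, also under Taf9b, held 135 and 124 reads in KL and 121 and 119 reads in KLG4m/m.

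Pfkl, the liver-type phosphofructokinase and a paralog of Pfkp, held 400 and 442 reads in KL and 487 and 479 reads in KLG4m/m at its promoter (log2 fold change 0.26, edgeR adjusted p = 0.0445). This peak lies 2.04 Mb from the Gpx4 peak on chromosome 10. Within 3000 kb of the Gpx4 peak, 18 of 289 peaks (6.23%) were called higher, and the part of this position in the Pfkl value was not tested. The other 14 enzymes, from Gpi1 and Gapdh to Eno1, ran from -0.13 to 0.20 on the log2 scale. Gapdh held 335 and 335 reads in KL and 357 and 329 reads in KLG4m/m.

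Of the other hexokinases, none passed at the gene level. Hk3, the hexokinase of myeloid cells, held 229 and 225 reads in KL and 234 and 251 reads in KLG4m/m over its 3 peaks. None of the 8 other glucose and fructose transporters passed, and Slc2a3 (GLUT3) held 413 and 389 reads in KL and 447 and 385 reads in KLG4m/m.

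Pfkfb3, which makes the phosphofructokinase activator fructose 2,6-bisphosphate, was higher by a log2 fold change of 0.25 (593 and 560 reads in KL, 690 and 627 in KLG4m/m, edgeR adjusted p = 0.00529). The peak in its first intron had the largest log2 fold change of its 3 peaks, where the KL libraries held 44 and 34 reads and the KLG4m/m libraries 68 and 56 (log2 fold change 0.72, edgeR adjusted p = 0.0306), while the promoter peaks gave 0.26 and 0.15 and did not pass. As for Hk2, the intronic peak was not shown to differ from the other peaks of the gene (edgeR adjusted p = 0.359 within the gene). The other 3 genes of this role did not pass.

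At the exits of the pathway, 1 of 5 genes of lactate and pyruvate transport and 1 of 10 of pyruvate entry and pyruvate dehydrogenase were called lower, beside 9.63% of all genes, and none was called higher. Slc16a1, the lactate and pyruvate carrier MCT1, fell from 187 and 205 reads in KL to 148 and 147 reads in KLG4m/m (log2 fold change -0.36, edgeR adjusted p = 0.0335 for the gene), but the same reads of its single peak missed the threshold among all peaks (edgeR adjusted p = 0.0594). Slc16a3, the lactate exporter MCT4, held 295 and 284 reads in KL and 323 and 331 reads in KLG4m/m and did not pass (log2 fold change 0.23, edgeR adjusted p = 0.0728). Pdk4, a kinase that switches pyruvate dehydrogenase off, fell from 160 and 133 reads to 88 and 110 reads (log2 fold change -0.51, edgeR adjusted p = 0.0087). The 9 other listed genes of pyruvate entry and pyruvate dehydrogenase, the 5 of gluconeogenesis and the 2 of glycerol phosphorylation did not pass.

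Of the 7 regulators, Hif1a, the oxygen-sensitive subunit of the hypoxia-inducible factor, was lower and Egln3, a prolyl hydroxylase that marks this subunit for degradation and is itself a hypoxia-induced gene, was higher. Hif1a had 263 and 236 reads in KL and 205 and 174 reads in KLG4m/m (log2 fold change -0.34, edgeR adjusted p = 0.019), and its promoter peak alone passed as well (log2 fold change -0.43, edgeR adjusted p = 0.0246). Egln3 had 265 and 252 reads in KL and 349 and 342 reads in KLG4m/m (log2 fold change 0.47, edgeR adjusted p = 5.96e-05), and both of its peaks passed. Myc held 244 and 246 reads in KL and 227 and 251 reads in KLG4m/m (log2 fold change 0.02).

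**Figure D5:**
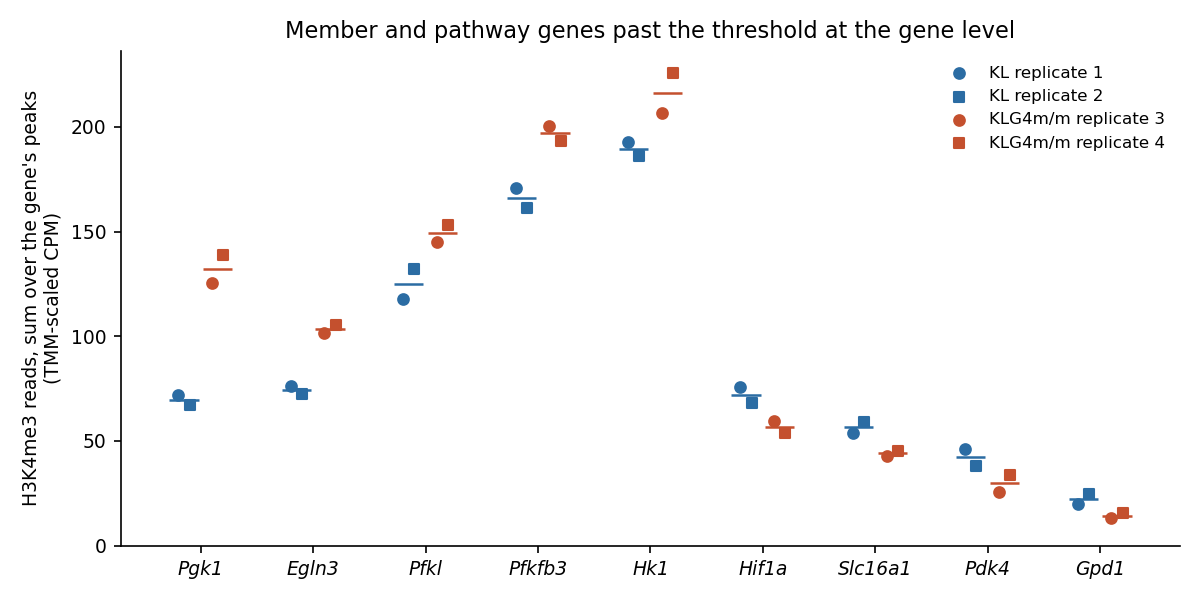
Reads summed over each gene's peaks, in TMM-scaled CPM (vertical axis, from 0), for the 2 member genes and 7 pathway genes past the threshold at the gene level, 1 point per library and a line at each group's mean of 2 libraries. The groups do not overlap at any of these genes, and the gap is widest at Pgk1.

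Reads in listed peaks ranged from 3244495 to 3463731 per library. The sorted identity was checked on marker lists. All 8 epithelial markers had listed peaks, with a summed level of 416 to 421 CPM in KL and 368 to 370 CPM in KLG4m/m, and 2 of them (Epcam and Cdh1) were lower in KLG4m/m. Of 5 lung epithelial markers 4 were listed (Sftpc was not), summing to 161 to 171 CPM in KL and 124 to 130 CPM in KLG4m/m, with Sftpb and Foxa2 lower. Of 8 leukocyte markers 6 were listed (Cd79a and Laptm5 were not), summing to 282 to 286 CPM in KL and 364 to 373 CPM in KLG4m/m, with 3 of them higher, Itgam and Spi1 among them, although CD45+ cells were sorted out. The endothelial sums were 214 to 239 CPM in KL and 232 to 243 CPM in KLG4m/m over 6 of 6 genes (Erg higher, Tek lower), and the fibroblast sums 64.6 to 71.7 and 69.5 to 72.8 CPM over 3 of 6 (Pdgfrb higher). The 3 called leukocyte markers were higher, as were the sums of Hk1, Pgk1, Pfkl, Pfkfb3 and Egln3 and the intronic peak of Hk2. The 4 called epithelial and lung epithelial markers were lower, as were Gpd1, Pdk4, Slc16a1 and Hif1a. Markers and genes are named here because they were called, so a shared direction follows from that choice and carries no information on a link. The other epithelial markers did not pass. Krt18, Krt19 and Cldn7 had log2 fold changes of 0.07, 0.11 and 0.06, and Krt8, Elf3 and Cldn4 had -0.28, -0.14 and -0.004. The uncalled lung epithelial markers Nkx2-1 and Napsa had -0.13 and 0.03. The part of the markers in these results was not tested.

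Gpx4, the targeted gene, had 1 promoter peak with 242 and 236 reads in KL and 304 and 301 reads in KLG4m/m (log2 fold change 0.40, edgeR adjusted p = 0.00854). Stk11 (Lkb1), deleted in both groups, had 2 peaks near its starts. One held 284 and 334 reads in KL and 341 and 337 reads in KLG4m/m (log2 fold change 0.19, edgeR adjusted p = 0.203), and the other held 197 and 173 reads in KL and 246 and 299 reads in KLG4m/m and was higher (log2 fold change 0.62, edgeR adjusted p = 0.0014). The Gpx4 peak lies outside the deleted exons and does not check that deletion, and the Stk11 peaks, at start sites, do not check the loss of Lkb1.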

How the data were processed

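CUT&Tag reads were trimmed with Trim Galore 0.6.10, mapped with BWA 0.7.15, cleared of mitochondrial, low-quality and duplicate reads (Picard 2.17.3) and used for peak calling with MACS2 2.2.7.1 by the authors; HOMER 4.11.1 is named for annotation. The labels call the assay CUT&Tag and describe release of the fragments by a protein A/G-MNase fusion. The authors deposited 1 table with whole-number counts per peak and library, without normalization. Its CPM values were scaled by the authors to the reads in listed peaks, so a change by 1 factor at every peak could not be seen. Whether peaks were called per library or on pooled libraries is not given in the sources used here. Columns with the authors' own comparison (fold changes, average CPM, F statistics and p-values) were not used. The methods name Ensembl 94, while 1.71% of 19828 gene names matched to RefSeq share a start or end with GRCm38, so coordinates are given as listed and were not converted.

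Counts were tested with edgeR 4.0.16 in R 4.3.3 (quasi-likelihood test, TMM scaling, no covariate, no filter) over all 35486 peaks and, summed by gene symbol, over all 20871 genes. The threshold was a Benjamini-Hochberg adjusted p under 0.05, and 95% intervals, approximate, follow from the F statistic. edgeR's test of differential usage compared each peak with the other peaks of its gene. Common dispersions were 0.00133 (peaks) and 0.000988 (genes). With 2 libraries per group no exact permutation test could reach 0.05. Alternatives used DESeq2 1.42.0, limma 3.58.1 on log2(CPM + 1), scaling by total reads, median centring, a mean of at least 10 CPM, an added 1.5-fold change, other choices of peaks per gene and leaving out each library. The fits were tested on simulated data. The members and lists were chosen with earlier results of these data known. Named were all members, every pathway gene past the threshold for its sum or for a peak, Gpx4 and Stk11; some results under this rule are not reported here. Other genes that appear with values (Taf9b, Gm52706, Gm12867, Gm13535, and pathway genes such as Gapdh, Hk3, Slc2a3, Slc16a3 and Myc) were added for context after their values were seen.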

Additional observations from a re-analysis of the deposited data

How the results depend on the processing

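Of 446 alternative values for 42 single peaks and genes, 377 kept their direction and their side of the threshold. In 51 the direction was kept and the call lost, 1 gained it and 17 changed sign. All 17 belonged to peaks or sums outside the threshold. Most of the 42 were outside it in the main test, where a kept side means only that no call arose. All 51 lost calls fell on the few that had passed. Values without a DESeq2 adjusted p were counted as kept, and the added 1.5-fold change could only end calls. Scaling by total reads, median centring, limma and the filter on 10 CPM left the counts of called members and pathway genes as they were or within 1.5 times. DESeq2 called 0 member peaks and 0 member genes in either direction, 2 pathway genes higher and 0 lower; over all peaks it called 33 higher and 244 lower, against 1099 and 1960 by edgeR. An added 1.5-fold change left 0 member genes higher, 1 pathway gene higher and 0 lower. With the highest peak of each gene only, 0 member genes were higher. The cause of these differences was not tested.

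Leaving out 1 library gave 0 to 1 higher and 0 to 1 lower member peaks, 0 higher and 0 to 1 lower member genes, 0 to 3 higher and 0 to 2 lower pathway genes, and 0 member peaks apart from the rest of their gene. The lone library left in a group is assumed there to vary like the other group. No paired analysis was possible because the compared groups share no replicate number: the KL libraries are numbered 1 and 2 and the KLG4m/m libraries 3 and 4.

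Signs changed when 1 library was left out at these log2 fold changes: Hk1 15.8 kb peak, -0.024 to 0.091; Hk2 peaks, -0.32 to 0.57 (12.2 kb), -0.39 to 0.10 (start of XM_017321401.3), -0.021 to 0.15 (promoter) and -0.13 to 0.61 (intergenic); Aldoa, -0.013 to 0.14 for the peak and -0.0080 to 0.15 for the sum; Pkm, -0.25 to 0.067 for the stronger peak and -0.13 to 0.087 for the sum; Ldha upstream peak, -0.079 to 0.19; Gpd1l, -0.061 to 0.10 for the promoter and -0.036 to 0.14 for the intergenic peak. The Gpd1l promoter also changed sign with the filter on 10 CPM, to -0.0044. Peaks of under 50 reads per library, which include most member peaks outside promoters, limit what could be called.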
